A study of Homo sapiens and Mus musculus with 21 samples.

Results

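The genes described here encode the core machinery of microRNA production and use. They are DROSHA, DGCR8, XPO5, DICER1, TARBP2, AGO1, AGO2 and AGO3, 8 genes in all, in a series whose input RNA table lists 58381 genes. They were taken by name, and DICER1 was chosen by its outlying share of the ribosome-protected fragments in 1 knockout library. Its fragment and efficiency values are therefore given as a description. RNA counts could be matched to 4 of the 8 genes (XPO5, DICER1, AGO1 and AGO3), and fragment counts to 2 (XPO5 and DICER1). RNA levels of DROSHA, DGCR8, TARBP2 and AGO2 were not analysed here.

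MicroRNAs are cut from long primary transcripts in the nucleus by the Microprocessor, in which the RNase DROSHA works with the RNA-binding protein DGCR8. Exportin-5, the product of XPO5, carries the hairpin precursor to the cytoplasm, where the RNase DICER1 and its partner TARBP2 cut it to a short duplex. An Argonaute protein (AGO1, AGO2 or AGO3) holds one strand of the duplex and pairs with target mRNAs, whose translation falls or whose decay rises. The hairpins of some microRNAs lie within the transcripts of these same genes.

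The samples were PCIF1 knockout (KO) and wild-type (WT) HEK293T cells, a human line derived from embryonic kidney. PCIF1 adds a methyl group to the capped first adenosine of an mRNA, giving m6Am, whereas m6A marks adenosines inside the transcript. The libraries used were 3 KO and 2 WT libraries of ribosome-protected fragments, 3 KO and 2 WT libraries of their input RNA, and 2 KO and 1 WT miCLIP libraries, in which an anti-m6A antibody crosslinked to RNA leaves substitutions at methylated adenosines. SLAM-seq, which follows the loss of labelled uridine from RNA, entered through the authors' ratio of KO over WT. Its labels name 1 library per genotype at each of 0, 6 and 12 h. The RNA is described as poly(A)-selected, and how this applied to the ribosome-protected fragments was not analysed here. The labels name neither the clones behind the KO libraries nor separate cultures. The p-values thus reflect library-to-library spread that may be technical. The level of PCIF1 itself, and the miCLIP sites of these genes in mouse embryonic fibroblasts, were not analysed here. Input libraries held 4511687 to 5960674 counts, and fragment libraries held 17665 to 124580 counts over the 785 listed genes. The input library of WT replicate 1 stood apart, at 40.2 on the first principal component (41.7% of the variance) against −16.3 to −2.22 for the other 4. IRS4, the 1 HEK293T marker of 6 with an identifier, averaged 485 ± 42.1 CPM in KO and 527 ± 40.8 CPM in WT input (SD, n = 3 and 2). In bulk RNA, fewer cells and less RNA per cell cannot be told apart.

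The starts assigned by the authors to DICER1, XPO5 and AGO3 are shown first, to set their start classes beside the base found there. The m6Am regions described further below were counted from the RefSeq gene start, without use of these classes or bases. Each window below runs 20 nt to either side of the start, 5′ to 3′ on the strand of the gene, with the start base in capitals, and was read from the RefSeq promoter table (GRCh38.p14).
DICER1, chr14:95133483-95133523, minus strand: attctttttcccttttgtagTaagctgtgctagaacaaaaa
XPO5, chr6:43576055-43576095, minus strand: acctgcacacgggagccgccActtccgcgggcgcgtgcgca
AGO3, chr1:35931062-35931102, plus strand: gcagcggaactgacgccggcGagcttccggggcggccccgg

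The start classes of DICER1 and XPO5 in the authors' deposited table did not name the base of the transcript. DICER1 was classed as an A start, and its transcript-strand base there was T. XPO5 was classed as a T start, and its transcript-strand base was A. AGO3, on the plus strand, was classed as a G start and had G. The same held across the authors' deposited tables for starts outside the m6Am class whose interval spans 161 nt and whose centre the promoter table covers. The letter equalled the transcript base at 403 of 403 plus-strand starts, against 0 of 87 minus-strand starts, and it was the complement of that base at 87 of 87 minus-strand starts. The letters of DICER1 and XPO5 are therefore those of the plus strand. AGO1, on the plus strand, was classed as a T start, at position 35869808 of chromosome 1, which the promoter table does not cover. Over 35097 RefSeq starts, A stood at 44.4%, G at 33.6%, C at 14.7% and T at 7.25%.

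The DICER1 start used by the authors lay 24507 nt downstream of the outermost of its 5 RefSeq starts. The bases just before it end in a pyrimidine-rich run followed by tag, as printed above. The outermost start, at position 95158010, begins with G, and those at 95157902, 95157529 and 95136801 begin with A. The DICER1 class thus refers to 1 of several possible 5′ ends, and the files do not show which of them these cells used.

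No member had an authors' strict m6Am region within 50 nt of its start, 0 of 8, against 1783 of 20056 protein-coding genes (8.89%). XPO5 had a region close by, at chr6:43575901-43575950, 88 nt downstream of its RefSeq start and 125 nt downstream of the start the authors classed. Its score was 2.55, rank 1773 of 2360 regions, which ran between 2.01 and 5.88 with a median of 2.90. The basis of the score is not given, and it is used to rank regions only. DROSHA, DGCR8, DICER1, TARBP2, AGO1, AGO2 and AGO3 had no region in their spans or within 500 nt. Apart from AGO2, which the promoter table does not hold, they also had none within 50 nt of any RefSeq start there.

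Among the other genes of the pathway, such a region lay at the start of 20 of 56, against 8.89% of all protein-coding genes. These are counts without a test, and the pathway genes and all protein-coding genes were not matched for RNA level. The count was 12 of 15 among genes that assist the Microprocessor or bind primary transcripts. They included DDX17, an RNA helicase of the Microprocessor (score 4.80), HNRNPA2B1 (4.52) and ILF2 (4.29), both RNA-binding proteins, ERH, a small partner of DGCR8 (3.92), and METTL3, the catalytic subunit of the m6A methyltransferase (3.65). Counts were 1 of 3 for nuclear export and import (RAN, the GTPase that loads exportins, 3.33), 2 of 13 for the Dicer step, and 5 of 25 for Argonaute loading and silencing.

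Internal m6A was listed in 7 of the 8 genes in each KO library and in 6 of 8 in the WT library. Across all protein-coding genes, 46.6% and 48.5% had a listed site in KO replicates 1 and 2, and 47.7% did in WT. These shares take sites on either strand, whereas member sites were counted on the gene strand, except for AGO2. The members and all protein-coding genes were not matched for RNA level or gene length, and their shares were not tested against each other. The members held 37 and 39 sites in KO replicates 1 and 2, and 35 in WT, at 73 distinct positions. All sites lie in a DRACH motif, the 5-base context of m6A, and each has at least 2 substituted reads. With 1 WT library, KO and WT were not tested against each other, and intervals below are exact 95% intervals that cover counting error only.

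**Figure D1:**
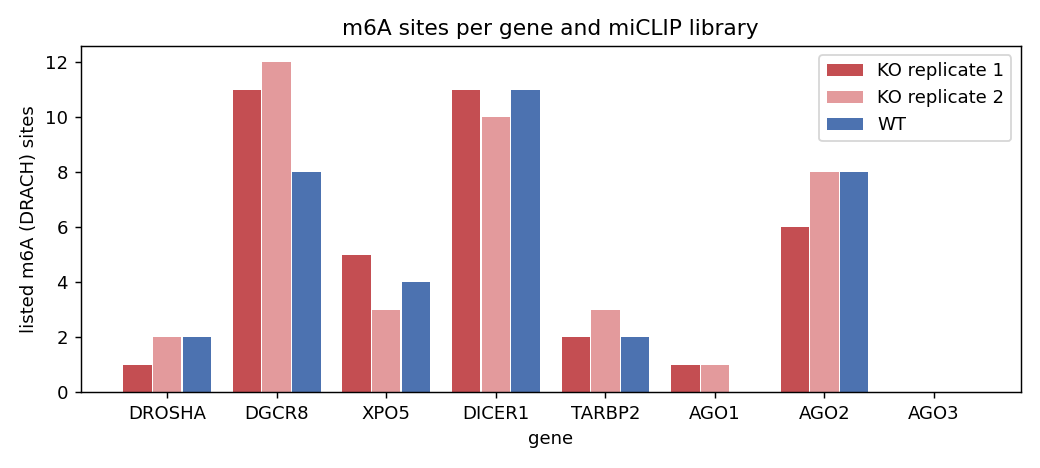
Number of listed m6A (DRACH) sites per gene (vertical axis) in KO replicate 1, KO replicate 2 and WT miCLIP libraries of HEK293T cells (bars, left to right within each gene). DGCR8 and DICER1 hold 8 to 12 sites per library, AGO2 holds 6 to 8 (either strand), and AGO3 has none.

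DICER1, AGO2 and DGCR8 had the most positions, at 20, 18 and 17. AGO2 alone was counted on both strands, so it is not ranked against DGCR8. DICER1 had 11 and 10 sites in KO replicates 1 and 2 and 11 in WT. DGCR8 had 11 and 12 in KO and 8 in WT. Among protein-coding genes with any site on either strand, the median was 3 sites in each library. The 95th percentile was 13 and 15 in KO and 13 in WT. DICER1 and DGCR8 thus lay above the median, and neither passed the 95th percentile. DROSHA had 1 and 2 sites in KO and 2 in WT, and TARBP2 had 2 and 3 in KO and 2 in WT. XPO5 had 5 and 3 in KO and 4 in WT. Reads at listed sites limit these counts, with medians of 37 and 42 reads per site in the KO libraries and 30 in WT.

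The Argonaute genes differed among themselves. AGO2 had 6 and 8 sites in KO and 8 in WT, at 18 positions counted without strand, of which none was listed in all 3 libraries. Positions 140636621 and 140636625, listed in WT alone, lie on the plus strand within the span of ERICD, a long noncoding RNA gene. The other AGO2 positions lie on the minus strand. The AGO2 counts and the member totals include the positions within ERICD. AGO1 had 1 site in each KO library and none in WT, at 2 different positions, each resting on 3 substituted reads. AGO3 had 0 sites in every library. Listed sites depend on read depth, and a gene without a listed site is not shown to lack m6A.

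Of 73 positions, 11 were listed in all 3 libraries, 16 in 2 and 46 in 1. Of the 37 sites of KO replicate 1, 17 (45.9%, interval 29.5 to 63.1%) were also in KO replicate 2 and 16 (43.2%) in WT, while all sites gave 43.9% and 40.1%. Of the 39 sites of KO replicate 2, 17 (43.6%) were in KO replicate 1 and 16 (41.0%) in WT. The 2 KO libraries therefore shared about as many of these sites with each other as with WT.

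The 11 positions listed in every library fell in DGCR8 (6), DICER1 (3), TARBP2 (1) and XPO5 (1). Over these 11, substituted reads made up 8.44% (interval 6.79 to 10.3%) of 995 reads in KO replicate 1 and 7.49% (6.12 to 9.05%) of 1309 reads in KO replicate 2. The WT library gave 9.60% (7.67 to 11.8%) of 823 reads. The 3 intervals overlap. Over all 11576 positions listed in every library, the shares were 6.43% and 6.30% in KO and 6.46% in WT. The percentage is a substitution rate of antibody-enriched RNA, not the share of transcripts that carry the mark.

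**Figure D2:**
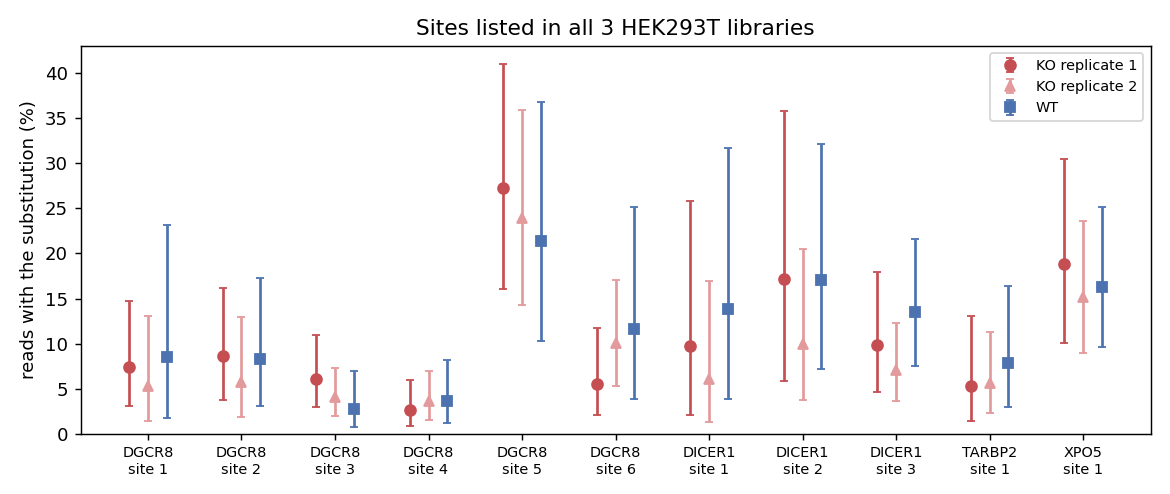
Percentage of reads with the substitution (vertical axis) at the 11 member sites listed in all 3 libraries, for KO replicate 1, KO replicate 2 and WT, with exact 95% intervals as bars. Sites are numbered along each gene by position. Fractions are highest at DGCR8 site 5, and at each site the 3 intervals overlap.

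The highest repeated fraction was in DGCR8, near the 3′ end of the gene. At position 20110858 of chromosome 22, in a ggAca context with the methylated A in capitals, 15 of 55 reads (27.3%) and 16 of 67 reads (23.9%) were substituted in KO replicates 1 and 2, and 9 of 42 reads (21.4%) in WT. XPO5 came next in both KO libraries, at position 43523907 of chromosome 6, also in ggAca. There 12 of 64 reads (18.8%) and 16 of 105 reads (15.2%) were substituted in KO, against 16 of 98 reads (16.3%) in WT. This XPO5 position lies within the span of POLR1C, which overlaps XPO5 at that end. The annotation at hand gives gene spans but no exons, so exon, intron or UTR is not stated for any site.

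Most DICER1 sites lay in 3 stretches. With neighbours no more than 500 nt apart, 6 of its 20 positions lay in 307 nt (chr14:95096012-95096318), 4 in 431 nt (chr14:95103510-95103940) and 6 in 381 nt (chr14:95124277-95124657). Of the other 4 positions, 2 lay 15 nt apart and 2 lay alone. At 95103940, in gaAct, 9 of 91 reads (9.89%) and 11 of 155 reads (7.10%) were substituted in KO, against 14 of 104 reads (13.5%) in WT. At 95096072, in gaAcc, the counts were 5 of 29 and 6 of 60 in KO, against 7 of 41 in WT. At 95096012, in agAct, 3 of 31 (9.68%) and 3 of 49 (6.12%) reads were substituted in KO, against 4 of 29 (13.8%) in WT. The KO intervals overlap the WT interval at all 3 positions. No DICER1 site lay in its region of overlap with the antisense gene DICER1-AS1.

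TARBP2 repeated 1 site, and DROSHA none in all 3 libraries. At position 53506162 of chromosome 12, in ggAct, TARBP2 had 4 of 75 (5.33%) and 7 of 124 (5.65%) substituted reads in KO, against 6 of 76 (7.89%) in WT. A further position on the opposite strand, 53501006, lies in the overlap with MAP3K12 and was not counted for TARBP2. For DROSHA, position 31526702 of chromosome 5 was listed in KO replicate 2 (6 of 174 reads, 3.45%) and in WT (5 of 227 reads, 2.20%).

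DGCR8 carried m6A sites around and inside microRNA hairpins that lie in its own span. The Microprocessor is known to cut hairpins in DGCR8 mRNA, which lowers DGCR8. The table of RefSeq hairpins holds the sequence of MIR3618, which is printed because 1 site lies 2 nt past its 3′ end. Capitals mark the mature microRNA.
MIR3618, chr22:20085746-20085833, plus strand: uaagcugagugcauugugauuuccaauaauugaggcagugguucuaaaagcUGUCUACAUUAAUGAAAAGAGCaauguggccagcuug

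A stretch of 399 nt (chr22:20085835-20086233) held 5 of the 17 DGCR8 positions. The first, 20085835, was listed in KO replicate 1 alone (3 of 24 reads, 12.5%). Position 20085928, 95 nt past MIR3618, had 7 of 94 (7.45%) and 4 of 75 (5.33%) substituted reads in KO, against 3 of 35 (8.57%) in WT. Position 20086135, in ggAca, lies inside the second hairpin, MIR1306 (chr22:20086058-20086142). It had 8 of 93 (8.60%) and 5 of 87 (5.75%) substituted reads in KO, against 6 of 72 (8.33%) in WT. Position 20086233, 91 nt past MIR1306, had 10 of 163 (6.13%) and 10 of 247 (4.05%) in KO, against 4 of 144 (2.78%) in WT. The intervals of KO and WT overlap at 20085928, 20086135 and 20086233.

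**Figure D3:**
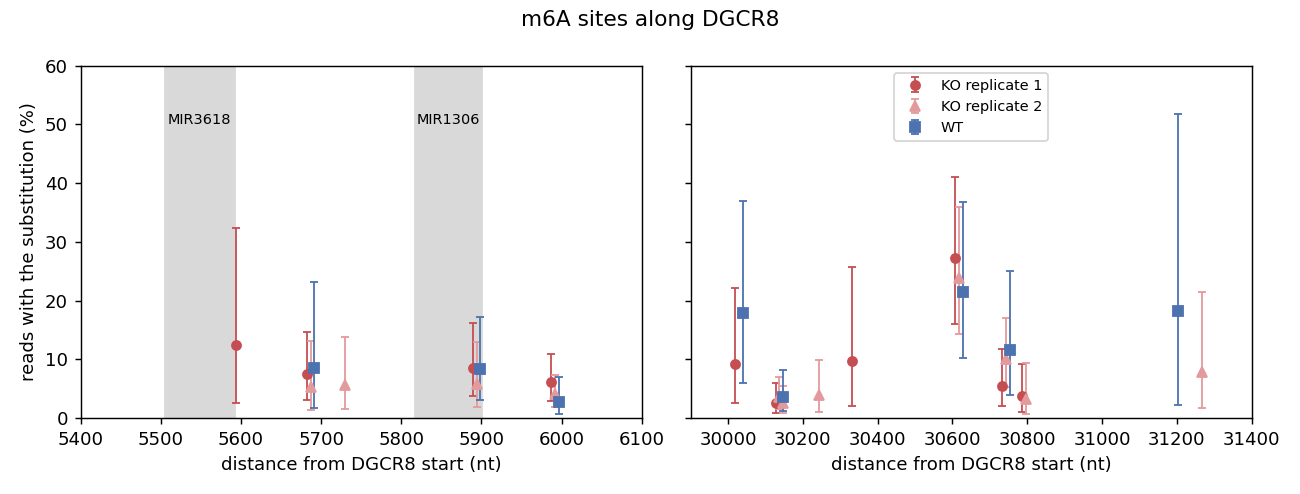
Percentage of reads with the substitution (vertical axis, exact 95% intervals) against distance from the DGCR8 start (nt) in KO replicate 1, KO replicate 2 and WT. Gray bands mark the MIR3618 and MIR1306 hairpins. The left panel holds the 5 hairpin-proximal positions and the right panel the 10 positions near the 3′ end, and markers of a position listed in several libraries are set slightly apart.

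The downstream DGCR8 stretch, 1238 nt long (chr22:20110270-20111507), held another 10 positions. Besides 20110858, position 20110984 was listed in every library, with 6 of 108 (5.56%) and 12 of 119 (10.1%) substituted reads in KO and 5 of 43 (11.6%) in WT. Position 20110378 was also repeated and was the lowest of the 11 in both KO libraries, at 2.60% and 3.62% in KO and 3.6% in WT. Of the 17 positions, 7 were in a ggAc context. The MIR3173 hairpin in the DICER1 span (chr14:95137919-95137986), had no site within it, and the nearest DICER1 site was 13262 nt downstream.

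Input RNA of the 4 members with counts did not pass the threshold in either direction. In edgeR's quasi-likelihood test of KO against WT, 5 of 14629 genes were called at an adjusted p under 0.05 (0.0342%), and 0 of the 4 members were. All 5 were lower in KO, 1360 genes had an unadjusted p under 0.05, and DESeq2 called 15 genes and likewise 0 members. Levels below are in CPM, the count of a gene scaled to a common library total, with TMM scaling, and gene lengths were not at hand, so levels are not compared between genes.

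**Figure D4:**
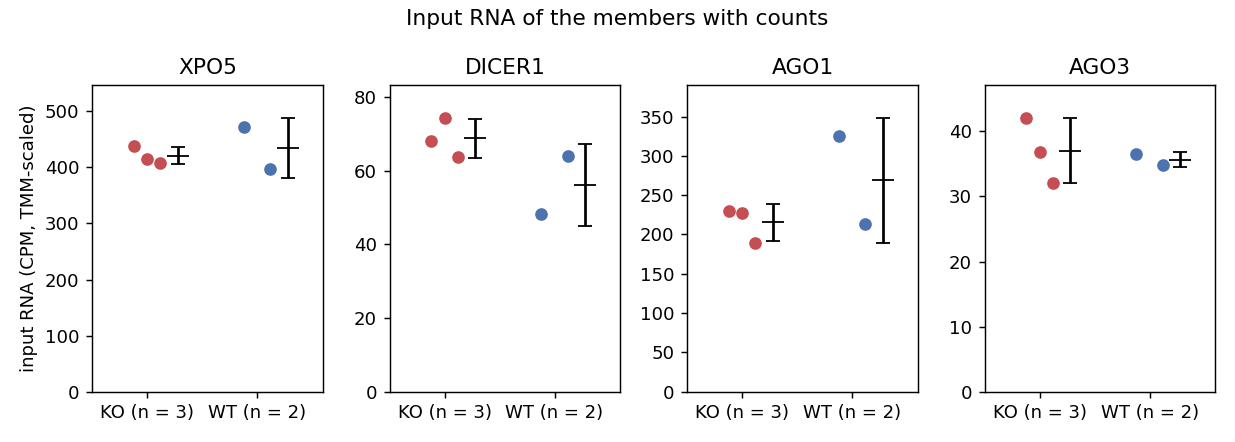
Input RNA of XPO5, DICER1, AGO1 and AGO3 (vertical axes, CPM with TMM scaling, starting at 0) in 3 KO and 2 WT libraries (points), with mean and SD beside them. DICER1 is lower and AGO1 higher in 1 of the WT libraries than in the other libraries.

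XPO5, the export receptor, had 438, 416 and 409 CPM in KO replicates 1 to 3, against 473 and 397 CPM in WT replicates 1 and 2. The KO values lie between the WT values. The log2 fold change was −0.04 (SE 0.10, 95% interval −0.25 to 0.16, edgeR adjusted p = 0.911).

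DICER1 had 68.2, 74.4 and 63.8 CPM in KO, against 48.4 and 64.1 CPM in WT. WT replicate 2 lies within the KO range, and WT replicate 1 lies below it. KO over WT gave a log2 fold change of 0.30 (SE 0.15, interval −0.03 to 0.63, edgeR adjusted p = 0.563). Without WT replicate 2, which leaves the outlying WT library alone, it was 0.54 with an adjusted p of 0.0166, in a run that called 1912 of 15386 genes (12.4%), and without WT replicate 1 it was 0.12.

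AGO1 had 230, 228 and 189 CPM in KO, against 325 and 213 CPM in WT. WT replicate 1 is above all KO libraries, while WT replicate 2 is within their range. The log2 fold change was −0.32 (SE 0.15, interval −0.65 to 0.01, edgeR adjusted p = 0.545). It was −0.56 with an adjusted p of 2.43e-06 without WT replicate 2, and 0.03 without WT replicate 1. The sign of AGO1 and the call of both DICER1 and AGO1 thus rest on WT replicate 1.

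AGO3 had 42.1, 36.9 and 32.1 CPM in KO, against 36.5 and 34.8 CPM in WT. Both WT values fall within the KO range, and the log2 fold change was 0.06 (SE 0.17, interval −0.31 to 0.43, edgeR adjusted p = 0.931), and it was −0.03 without KO replicate 1.

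Of 24 other pathway genes with counts, 0 were called, 9 had a positive log2 fold change, and the median was −0.03, against −0.02 over all genes tested. In the Dicer step list, TENT2, a poly(A) polymerase that extends microRNA ends, had a log2 fold change of 0.52 (95% interval 0.10 to 0.93), and LIN28B, which blocks let-7 processing, had 0.49 (0.11 to 0.88). ADAR, which edits double-stranded RNA, had −0.14. Both TENT2 and LIN28B had an edgeR adjusted p of 0.513, the smallest in the list of pathway genes. In the silencing list, HSP90AA1, a chaperone of Argonaute loading, had 0.32, and TNRC6B and TNRC6C, scaffold proteins that bind Argonautes, had −0.41 and −0.36. XPO1 had 0.34 and RAN 0.11 among transport genes, and DDX17 had −0.20, SRSF3 0.16 and SAFB −0.12 among Microprocessor-associated genes. Without WT replicate 1, which stood apart, DDX17 was 0.03, SAFB 0.01 and ADAR 0.04, each of the opposite sign. In the same run TNRC6B was −0.16, TNRC6C −0.05, HSP90AA1 0.09, XPO1 0.13, SRSF3 0.08 and RAN 0.08, TENT2 was 0.33 and LIN28B 0.40, and 0 of the 24 were called. Without WT replicate 2, 8 of these 24 genes were called, in a run that called 12.4% of all genes tested.

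The authors' deposited SLAM-seq table lists AGO1 and AGO3, both with a KO over WT ratio below the median of the table. AGO1 had 0.569, rank 117 of 666 from the lowest, and AGO3 had 0.715, rank 211. The median over all 666 genes was 0.891, with quartiles of 0.652 and 1.18. AGO1 lies below the lower quartile and AGO3 above it. The files do not say which quantity the ratio compares, and each value is 1 ratio without replicates. Other pathway genes in the authors' deposited table were spread on both sides, with TENT2 at 0.640, LIMD1 at 0.749, FMR1 at 0.754, ZSWIM8 at 0.843, LIN28B at 1.05, MOV10 at 1.06, TNRC6B at 1.10 and TNRC6C at 1.67.

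DICER1 took very unequal shares of the ribosome-protected fragment libraries. Counts were 238, 4723 and 146 in KO replicates 1 to 3, against 215 and 71 in WT replicates 1 and 2. As shares of the 785 listed genes these are 0.191% (exact interval 0.168 to 0.217%), 10.2% (9.95 to 10.5%) and 0.25% (0.211 to 0.294%) in KO, against 1.22% (1.06 to 1.39%) and 0.115% (0.0897 to 0.145%) in WT. KO replicate 2 and, at a lower level, WT replicate 1 stand above the other 3 libraries, so the high values are not confined to one genotype. DICER1 ranked 1 of 785 genes in KO replicate 2 and 3 in WT replicate 1, but 119 and 69 in the other KO libraries and 274 in WT replicate 2.

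**Figure D5:**
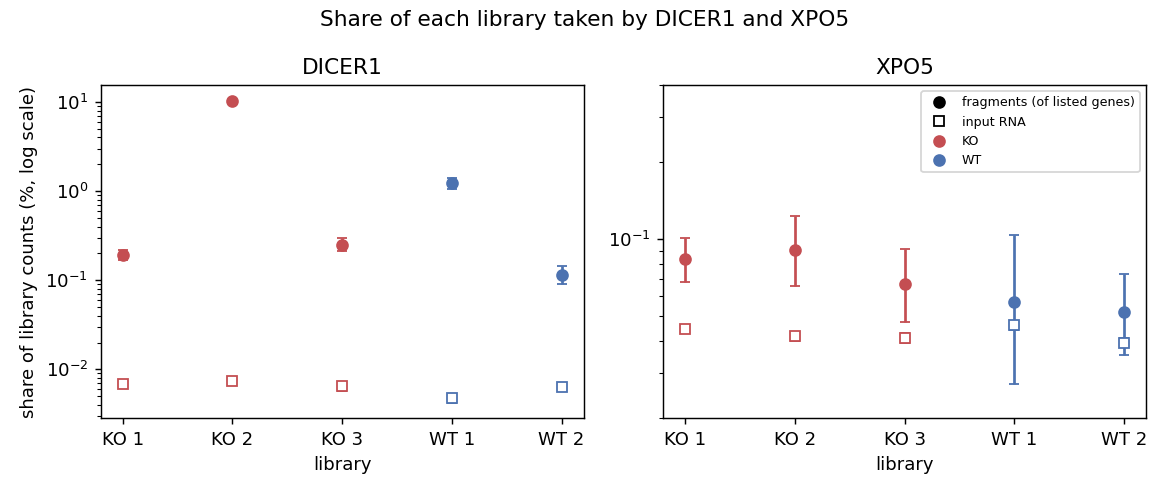
Share of library counts (%, log axis) taken by DICER1 (left) and XPO5 (right) in KO replicates 1 to 3 and WT replicates 1 and 2, with exact 95% intervals. Filled circles are ribosome-protected fragments, as a share of the 785 listed genes, and open squares are input RNA as a share of all genes, so the vertical offset between them is not an efficiency. DICER1 fragments reach 10.2% in KO replicate 2 while its input share stays between 0.00471% and 0.00748%.

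Input RNA showed no such spread. DICER1 made up 0.00693%, 0.00748% and 0.00643% of input counts in KO, against 0.00471% and 0.00639% in WT. The highest other gene in each fragment library was HIST1H1E, a linker histone, with 2.08%, 1.85% and 2.16% in KO and 1.62% and 1.91% in WT. In KO replicate 2 DICER1 thus held more than the highest other gene, and in the other libraries less.

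The group difference in DICER1 fragments depended on both of these libraries, with a log2 fold change of 2.64 (SE 2.82) over all 5 libraries −1.53 without KO replicate 2 and 5.09 without WT replicate 1. For translational efficiency, the change of fragments relative to input, it was 2.42, −1.64 without KO replicate 2 and 5.01 without WT replicate 1. Per library, the log2 ratio of fragment to input CPM over the genes in both tables was 2.47, 8.28 and 2.99 in KO, against 5.57 and 1.85 in WT. The authors' deposited table gives DICER1 a log2 efficiency change of 2.34 (SE 2.25) at a mean normalized count of 3203, the highest of 765 genes, and the next is 2930. It is the 1 gene of 765 without a p-value there. DESeq2 run on the deposited counts also gave no p-value for DICER1, and for no other gene, in both the fragment and the efficiency comparison.

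No other listed gene matched this excess in KO replicate 2. The measure was the ratio of CPM without TMM scaling in KO replicate 2 to the highest such CPM of the other 4 fragment libraries, which was 8.40 for DICER1. Among the next 5 genes were BUB3 at 1.80, RPS15 at 1.78, ANK3 at 1.53 and YWHAB at 1.5, and the median over 785 genes was 0.69. With DICER1 left out of the library totals, these ratios were 2.0 for BUB3, 1.99 for RPS15, 1.68 for ANK3 and 1.66 for YWHAB. The same ratio computed for WT replicate 1, the shallowest library, gave 9.91 for MTRNR2L3 and 8.44 for REXO2. The highest ratio was 1.86 in KO replicate 1 and 1.85 in KO replicate 3. A highest ratio above 8 was thus found in 2 of the 5 libraries. The fragment counts give 1 number per gene, so where along DICER1 these reads lie was not analysed here.

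XPO5, which was not chosen for its fragments, had 810, 1006 and 656 CPM of fragments in KO (TMM-scaled), against 538 and 518 CPM in WT. These rest on 104, 42 and 39 counts in KO, and 10 and 32 counts in WT. All KO values lie above both WT values, as they do for 83 of the 785 listed genes (10.6%). The log2 fold change was 0.64 (SE 0.33, 95% interval −0.04 to 1.32, edgeR adjusted p = 0.915). In the fragment comparison edgeR called 0 of 785 genes (0%) with 30 at an unadjusted p under 0.05, and DESeq2 also called 0.

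XPO5 efficiency was higher in every KO library than in either WT library, but did not pass the threshold after adjustment. The log2 ratio of fragments to input was −1.41, −1.01 and −1.59 in KO, against −2.14 and −1.92 in WT. The groups do not overlap, and 78 of 785 genes (9.94%) separated in the same direction. The change in efficiency was 0.71 on the log2 scale (SE 0.29, interval 0.09 to 1.33), with an unadjusted p of 0.027 and an adjusted p of 0.608 by edgeR. Over the alternatives it ran between 0.57 and 0.81, with adjusted p from 0.423 to 0.933. In this comparison edgeR called 0 of 785 genes (0%), with 56 at an unadjusted p under 0.05, and DESeq2 called 1. The authors' deposited table gives XPO5 a log2 change of 0.68 (SE 0.31), rank 743 of 765 from the lowest, with a p of 0.0305 and an adjusted p of 0.487. The depth of WT replicate 1, with 10 XPO5 counts, limits this comparison.

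Of the 17 other pathway genes with fragment counts, 0 were called in fragments or in efficiency. The log2 fold change was positive for 11 of 17 in each, with medians of 0.12 in fragments and 0.10 in efficiency, against 0.00 and 0.01 over all 785 genes. SRSF3, a splicing factor that aids primary transcript cleavage, had −0.49 (SE 0.24, adjusted p = 0.513) for efficiency in the authors' deposited table, and ADAR had 0.51 (SE 0.29, adjusted p = 0.577).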

How the data were processed

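Members and gene lists were chosen with earlier results of these data known. The authors deposited whole-number read counts per gene for input RNA and fragments, 1 column per library, and counts of substituted reads at DRACH positions called per library. The authors' deposited SLAM-seq table holds a ratio of KO over WT. Per the file headers, the authors' efficiency table holds a mean normalized signal per gene, log2 fold changes and their errors, a Wald score and p-values under DESeq2's column names. The deposited m6Am list carries a score per region. Tools named in the submitters' processing notes, without roles, are STAR, BWA 0.7.17, deepTools and bedtools, with the builds hg38 and GRCh38. For the counter, its strand setting and its annotation nothing is given in the sources used here, so reads of overlapping genes on opposite strands may not be separated.

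Ensembl identifiers were paired with names through the authors' class tables alone. Counts were tested in edgeR 4.0.16 (R 4.3.3): TMM, filterByExpr for input, robust quasi-likelihood F test, two-sided, Benjamini-Hochberg over all genes tested, threshold 0.05. Efficiency was the interaction of genotype and library kind over genes in both tables. Per-library efficiency used CPM plus 1. DESeq2 1.42.0, RLE factors, other filters, a replicate block and leaving out libraries were alternatives. The fit was also run on simulated counts, which had the same dispersion for every gene and no outlying library. That run therefore does not measure how the fit behaves with the unequal libraries here. The direction of the authors' efficiency values was checked against this fit (r = 0.994 across 765 genes). Intervals are Clopper-Pearson at 95% and cover counting error only, since reads are not independent molecules. All 8 members were named. Pathway genes were named if called, or among the 3 smallest p-values of their list in input. As genes like DICER1, the 5 with the next highest ratios were taken, of which 1 is not reported here. Pathway genes with the highest m6Am scores, those in the SLAM-seq table, SRSF3 and ADAR in the efficiency table, HIST1H1E, MTRNR2L3 and REXO2 were named after their values were seen. Pathway genes comprised 56 genes in 4 lists, of which 24 had an identifier. Sequences came from RefSeq tables (GRCh38.p14), in which 7 of 8 members matched. Marker lists for other cell types had no identifiers and were not used.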

Additional observations from a re-analysis of the deposited data

How the results depend on the processing

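Leaving out 1 library at a time gave 0 to 2 of 4 members and 0 to 8 of 24 pathway genes called in input RNA. Both maxima came without WT replicate 2, a run that called 1912 of 15386 genes (12.4%), where the lone WT library is the one that stands apart and the spread comes from KO. There AGO1 was −0.56, DICER1 0.54 and XPO5 −0.14 (log2). Without WT replicate 1, AGO1 turned to 0.03 and XPO5 input to 0.10. AGO3 turned to −0.03 without KO replicate 1. DICER1 turned to −1.53 in fragments and −1.64 in efficiency without KO replicate 2, and was 5.09 and 5.01 without WT replicate 1. No member was called in fragments or efficiency under any alternative run. XPO5 fragments ran from 0.50 to 1.57, the highest with library sizes taken from the input. The DICER1 share in KO replicate 2 was 10.2%, and 11.3% without the 10 highest genes, 10.7% over the efficiency table's genes and 11.4% with the TMM factor. The 73 m6A positions fell to 27 with at least 5 substituted reads, 6 with at least 10, and 48 with at least 20 reads. The m6Am regions at member starts numbered 0 within 50 nt, and 1 (XPO5) within 100 nt or 500 nt.

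Over all genes, the input calls numbered 5 in the main fit, 15 with DESeq2, 152 without a count filter, 3 with the replicate block, and 2 to 1912 with 1 library left out. Fragment calls were 0, against 6 with the replicate block and 0 to 3 with 1 library left out. Efficiency calls were 0, against 1 with DESeq2 and 0 to 14 with 1 library left out. The replicate numbers were not shown to pair samples: deviations of same-numbered KO and WT libraries correlated at 0.16 and 0 in input and at 0.19 and 0.21 in fragments. With the replicate block 0 members were called, XPO5 fragments were 0.81 (log2), and DICER1 fragments were 1.97. For efficiency the block instead joined the input and fragment libraries of the same name, and DICER1 was 0.44. Deviations of these input and fragment libraries correlated at 0.06, 0.1 and 0.25 in KO replicates 1 to 3. In WT replicates 1 and 2 they correlated at −0.07 and −0.07. Fragment depth (17665 counts in WT replicate 1) limits every fragment comparison.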

Other observations

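Among 1562 human hairpins with a sequence in the RefSeq table, 9 held a listed m6A site in HEK293T cells, at 12 positions, which were 3 and 8 in KO replicates 1 and 2 and 6 in WT. MIR1306 in DGCR8 is not among the 1562 hairpins searched. The 2 positions listed in all 3 libraries both lie in MIR1182 (GRCh38 chromosome 1, 231019828 to 231019924). At 231019841, 3 of 113 reads (2.65%) and 8 of 115 reads (6.96%) were substituted in KO, against 5 of 111 reads (4.5%) in WT. At 231019920 it was 4 of 121 (3.31%) and 6 of 166 (3.61%) in KO, against 5 of 149 (3.36%) in WT. MIR10393 had a site in both KO libraries, with 3 of 36 (8.33%) and 9 of 66 (13.6%) reads, and none listed in WT. No difference between KO and WT was tested.

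Among other pathway genes, DDX17 had 36 and 34 m6A sites in KO and 31 in WT, and GEMIN4 had 24 and 35 in KO and 30 in WT. ADAR had 21 and 24 in KO and 28 in WT. Of the 56 pathway genes, 48 and 53 had a site in KO and 47 in WT. Across all protein-coding genes, on either strand, the shares were 46.6% and 48.5% in KO and 47.7% in WT. The 2 sets were not matched for RNA level, on which listed sites depend, and no difference was tested. LIN28A, ZC3H12A and WTIP had none in any of the 3 libraries.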
